A study of Mus musculus with 298 samples.

Results

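Prokineticin 2 and neuromedin S are peptide signals that neurons of the suprachiasmatic nucleus (SCN), the circadian pacemaker of the mammalian hypothalamus, can release. The 6 genes described here are the 2 ligands Prok2 and Nms, the related ligand Nmu (neuromedin U), the prokineticin receptor Prokr2, and the neuromedin receptors Nmur1 and Nmur2. They were chosen by name from the 22800 genes of the deposited count table, and all 6 have a row in it. The data are RNA-seq counts of libraries, each from the cytoplasm of 1 mouse SCN neuron drawn up through the patch pipette after its electrical activity had been recorded. Lights were on for 12 h and off for 12 h. Day cells come from slices made near zeitgeber time (ZT) 0, and night cells from slices made near ZT 12. The labels sort the cells by time of day, by firing (active, silent or depolarized) and by cFOS label (cFOS+ or cFOS-). They give no strain, genotype, age or sex, and no animal or slice.

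The day cells comprised 51 that were active and cFOS+, 27 active and cFOS-, 17 silent and cFOS+, 32 silent and cFOS-, 2 depolarized and cFOS+, and 7 depolarized and cFOS-. The night cells numbered 41, 46, 34, 34, 3 and 2 in the same order, plus 1 silent cell without a cFOS label. That cell stands for 2 libraries, 1 labelled cFOS+ and 1 labelled cFOS-, whose log counts correlated at r = 0.9995, against 0.696 for the next closest of 44253 pairs; they were counted as 1 sample, which leaves 297 cells, and neither had a read of any of the 6 genes. Totals ran from 3187057 to 25535298 reads per cell (median 6319546). Several recordings were made in 1 slice, so cells are not replicates and no p-value is given: pooled CPM (a gene's reads scaled to all reads of the same cells) carry exact Poisson intervals, shares of cells carry exact Clopper-Pearson intervals, both at 95%, and both cover counting error only. The neuronal gene Snap25 was at 100 CPM or more in 95.3% of cells and the GABA-synthesis gene Gad1 in 83.2%, while the vesicular GABA transporter Slc32a1 reached that level in only 3.37%. Microglial markers (11 genes, all detected) summed to at least 100 CPM in 113 cells. Fos, the gene that the cFOS label names, was at 2005 CPM in cells labelled cFOS+ and 2676 CPM in cells labelled cFOS-, so it went against the label.

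Prok2 is a secreted protein known as an output signal of the SCN clock, with transcript levels in rodent SCN that are high by day and low at night; it acts through the G protein-coupled receptors Prokr1 and Prokr2. Neuromedin S and neuromedin U share a C-terminal peptide sequence and act through Nmur1, found mainly in the periphery, and Nmur2, found mainly in the brain. In the mouse SCN, neuromedin S marks a large group of neurons that includes many vasoactive intestinal peptide (Vip) and vasopressin (Avp) neurons. These receptors couple largely to Gq and calcium release.

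The promoters of the 6 genes were read from RefSeq (build GRCm38.p6), as 250 bases before and 50 after each annotated start; all 6 genes matched, with 7 promoters, since Nmur1 has 2. They are shown because clock proteins are known to act through the E-box CACGTG. Each was searched on both strands for CACGTG (identical on both strands), the cAMP response element TGACGTCA, its shorter form TGACG, which lies within it, and the ROR element AGGTCA. Capitals mark every match in the promoters of the 2 ligands and the receptor that were detected in many cells.

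Prok2 promoter, chr6:99726343-99726642, strand minus: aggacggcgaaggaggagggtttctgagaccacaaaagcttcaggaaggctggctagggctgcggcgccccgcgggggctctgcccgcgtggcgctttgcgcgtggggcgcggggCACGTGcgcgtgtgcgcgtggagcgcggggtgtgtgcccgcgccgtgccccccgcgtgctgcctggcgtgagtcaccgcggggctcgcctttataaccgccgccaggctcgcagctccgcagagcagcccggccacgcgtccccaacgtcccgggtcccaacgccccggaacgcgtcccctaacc

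Nms promoter, chr1:38938899-38939198, strand plus: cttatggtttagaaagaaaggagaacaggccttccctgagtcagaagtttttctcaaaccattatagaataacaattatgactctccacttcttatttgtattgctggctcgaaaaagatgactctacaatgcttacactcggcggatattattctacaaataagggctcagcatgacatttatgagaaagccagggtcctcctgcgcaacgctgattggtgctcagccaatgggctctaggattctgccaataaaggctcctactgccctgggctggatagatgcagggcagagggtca

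Prokr2 promoter, chr2:132385398-132385697, strand minus: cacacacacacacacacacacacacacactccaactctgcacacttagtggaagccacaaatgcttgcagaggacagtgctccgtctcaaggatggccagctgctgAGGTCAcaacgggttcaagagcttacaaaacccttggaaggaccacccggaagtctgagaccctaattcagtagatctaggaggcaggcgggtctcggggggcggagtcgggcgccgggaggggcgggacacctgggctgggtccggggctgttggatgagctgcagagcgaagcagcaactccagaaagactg

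The Prok2 promoter held 1 CACGTG, whose first base lies 135 bases before the start, and no other searched motif. The Nms promoter held none of the 4, and that of Prokr2 held 1 AGGTCA. The Nmu promoter held CACGTG at 57, AGGTCA at 89 and TGACG at 114 bases before the start, and those of Nmur1 and Nmur2 held none. Of all 32851 promoters in the table, 7.15% held CACGTG, 20.8% TGACG, 1.79% TGACGTCA and 16.3% AGGTCA on either strand. These matches are letters in a window and no data on binding were analysed.

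Over all 297 cells the ligand Nms was the most abundant of the 6, at 393.4 CPM in pooled counts (392.5 to 394.25). It was at 100 CPM or more in 112 cells (37.7%, 32.2 to 43.5). Prokr2 stood at 208 CPM and reached 100 CPM in 67 cells (22.6%, 17.9 to 27.7). Prok2 stood at 46.9 CPM and reached it in 36 cells (12.1%, 8.64 to 16.4). Cells past this level are called Nms, Prokr2 and Prok2 cells here. As a measure of stray signal, 16 of 20 genes not expected in hypothalamic neurons reached 100 CPM in no cell, and the highest of the 20, Acta1 of skeletal muscle, did so in 15 cells (5.05%).

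The other 3 genes were rare. Nmur2 reached 100 CPM in 4 cells, at 408.65, 281.2, 216 and 195.8 CPM, 3 of them day cells and 1 a night cell; 4 more cells had reads at 0.299 to 49.7 CPM. Nmu reached it in 1 night active cFOS- cell, at 109.8 CPM, which also held Prok2 at 167 CPM, Nms at 1118 CPM and Avp at 4961 CPM; 6 more cells had Nmu reads, at 0.281 to 99.0 CPM. Nmur1 had reads in 2 day cells, at 84.3 and 0.349 CPM. Where no cell passes, the limit given is 3 cells of the total, so that 0 of 297 cells allows a share of Nmur1 cells of up to 1.01%. The partner genes Prok1 and Prokr1, the other ligand and receptor of the prokineticin family, each passed 100 CPM in 1 cell, at 203 and 358 CPM. Mrap2, an accessory protein known to act on Prokr1 and Prokr2 in mice, was at 100 CPM or more in 110 cells (37.0%).

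Divided by the length of all exons, Nms was close to its CPM, since its exons span 1001 bases, while Prokr2 was at 26.2 CPM per kb and Prok2 at 24.5. Nmu was at 2.10, Nmur2 at 1.38 and Nmur1 at 0.153. On that scale Prokr2 and Prok2 were close to each other and Nms stood far above both. Exon lengths come from the GENCODE annotation of GRCm38, in which Prok2 lies on chromosome 6 (99711299 to 99726392, minus strand), Prokr2 on chromosome 2 (132337733 to 132385447, minus), Nms on chromosome 1 (38939149 to 38950276, plus), Nmu on chromosome 5 (76333495 to 76363788, minus), Nmur1 on chromosome 1 (86386303 to 86426228, minus) and Nmur2 on chromosome 11 (56024987 to 56041010, minus).

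The level per cell was far from even. Of the Nms cells, 41 were above 1000 CPM, their median was 654 CPM and the highest held 7726 CPM. For Prokr2, 23 of 67 cells were above 1000 CPM, with a median of 731 CPM and a highest value of 4400 CPM. Prok2 cells had a median of 225 CPM and only 2 were above 1000 CPM, at 1412 and 1035 CPM, both by day. The 100 CPM line cut through the Prok2 values: the nearest cells were at 103 and 99.7 CPM, and 25 cells lay between 50 and 200 CPM, against 8 for Prokr2 and 16 for Nms. Thinned to 3000000 reads per cell, any Prok2 read was found in 26.6% of cells, any Prokr2 read in 25.6% and any Nms read in 43.1%.

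**Figure D1:**
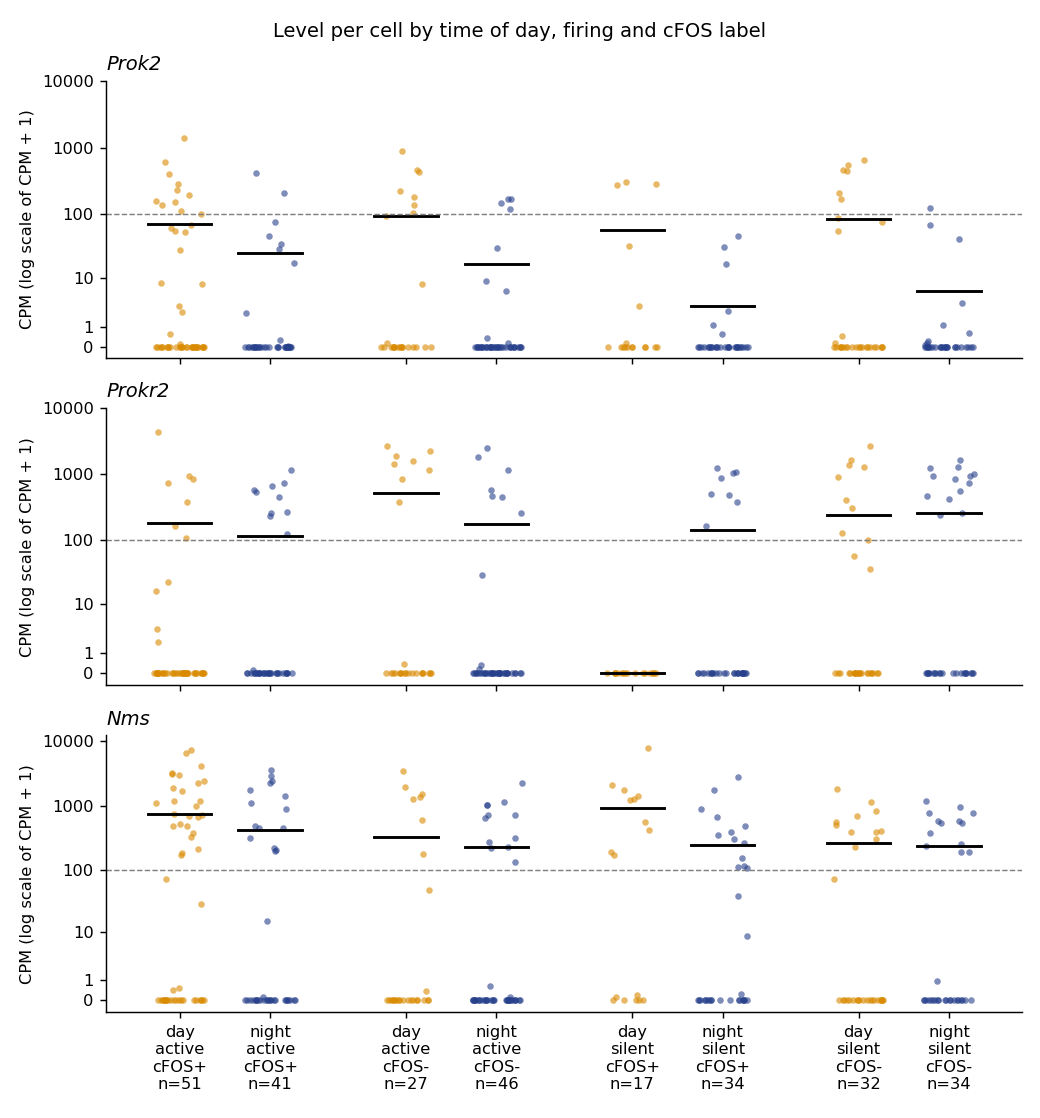
Level per cell of Prok2, Prokr2 and Nms on a log scale of CPM + 1, in active and silent cells, with day cells (orange) left of night cells (blue) for each firing and cFOS label. Each point is 1 cell, black lines are pooled CPM and the dashed line is 100 CPM; night Prok2 values reach 412.96 CPM at most, against 1412 CPM by day, and Prokr2 is at 0 in all 17 day silent cFOS+ cells.

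The first comparison set 127 day cells against 156 night cells, with depolarized cells left out. Among 11856 genes at 5 CPM or more in either group, 7.00% were at least 2-fold higher by day and 7.44% at least 2-fold lower. Of the 6 genes, 4 reached 5 CPM (Prok2, Prokr2, Nms and Nmur2), 1 of them, Prok2, was at least 2-fold higher and none was 2-fold lower. The day cells held more of the microglial transcripts than the night cells: 43.3% against 32.7% of cells had a summed level of 100 CPM or more, over ranges of 0 to 35397 and 0 to 34761 CPM, and all 11 markers were higher by day. Astrocyte markers (10 of 12 higher by day, 7 of them at least 2-fold) summed to 773 CPM in day and 361.6 CPM in night cells, and were present at a summed 100 CPM in 62.2% and 56.4% of cells. Oligodendrocyte markers (6 of 12 measured, 5 of them higher by day) summed to 518.15 CPM in day and 295.8 CPM in night cells. The part of these glial markers in the differences by time was not tested, apart from the values given without the cells that carried microglial markers.

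Prok2 was the member with the widest difference between the times. Its cells made up 20.5% of the day cells (26 of 127, interval 13.8 to 28.5) and 4.49% of the night cells (7 of 156, 1.82 to 9.03), with pooled levels of 77.8 and 13.8 CPM (log2 ratio 2.41). The smallest ratio within a firing and cFOS class was 1.46, in active cFOS+ cells (71.1 CPM in day and 25.2 in night cells). The others were 2.40 in active cFOS- cells (94.8 and 17.2 CPM), 3.59 in silent cFOS- cells (84.1 and 6.07 CPM) and 3.82 in silent cFOS+ cells (57.4 and 3.15 CPM). Day and night cells overlapped at the low end, since most cells of either time held no Prok2. Without the cells that carried microglial markers the Prok2 ratio was 2.86. Among night cells with 100 CPM or more, 6 of the 7 were active. Their values were 412.96, 209.8, 168.6, 167, 145, 121.8 and 121 CPM, and the 121.8 CPM was the silent cell. A single cell held 28% of all night Prok2 reads, and the day cell with the most Prok2 reads held 9.64% of day reads.

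Nms, of the 6 the gene present in the most cells, was present in 42.5% of day cells (54 of 127, 33.8 to 51.6) and 34.0% of night cells (53 of 156, 26.6 to 42.0). Its pooled level was 547.1 CPM in day and 279.9 CPM in night cells, with a log2 ratio of 0.96, just short of 2-fold. The ratio was positive in the 4 strata, from 0.12 in silent cFOS- cells (259 and 239.02 CPM) to 1.90 in silent cFOS+ cells (906 and 242.2 CPM). Where present, the transcript was higher by day: Nms cells had a median of 903 CPM in the day and 538 CPM in the night group. The share intervals overlapped. At 1000 CPM the shares were 20.5% of day and 8.97% of night cells. No interval was set on the level per Nms cell, so whether level or share differed more was not tested.

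The receptor Prokr2 was present in 18.9% of day cells (24 of 127, 12.5 to 26.8) and 24.4% of night cells (38 of 156, 17.9 to 31.9). Its pooled level ran the other way, at 247.6 CPM in day and 170 CPM in night cells (log2 ratio 0.54), and the top day cell alone held 16.6% of the day reads. The strata differed in sign: 0.65 in active cFOS+ cells (181.4 and 115 CPM) and 1.57 in active cFOS- cells (526.1 and 176.01 CPM), but -0.14 in silent cFOS- cells (240.3 and 265.2 CPM). In silent cFOS+ cells there was no Prokr2 read in any of 17 day cells, which by the same limit of 3 cells allows a share of up to 17.6%, against 8 of 34 night cells and 142 CPM. With each of the 4 strata given equal weight, this empty stratum put the mean log2 ratio at -1.27.

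**Figure D2:**
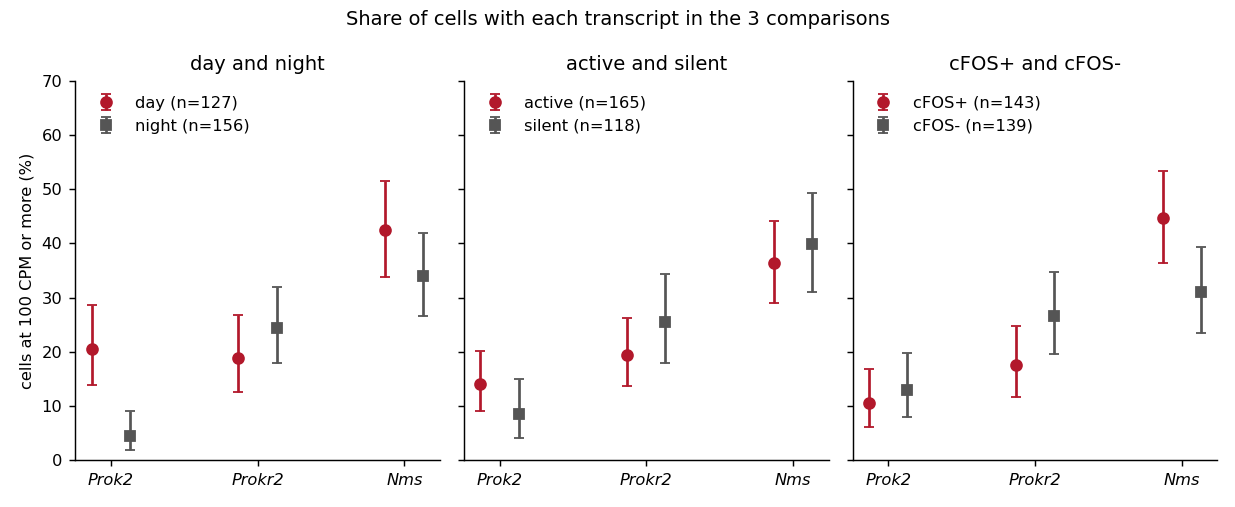
Share of cells at 100 CPM or more (y axis, percent) for Prok2, Prokr2 and Nms in day and night, active and silent, and cFOS+ and cFOS- cells, with the number of cells in each legend. Points are shares and bars are exact 95% intervals; only the Prok2 intervals of day (13.8 to 28.5) and night (1.82 to 9.03) stand apart.

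By firing, 165 active cells were set against 118 silent cells. Of 11821 genes, 7.21% were at least 2-fold higher in active cells and 6.28% at least 2-fold lower. Nmur2 was the only 1 of the 4 measured members past 2-fold, at 6.79 CPM in active and 1.97 CPM in silent cells, which rests on 3 active cells and 1 silent cell past 100 CPM. Prok2 was at 48.5 CPM in active and 34.1 CPM in silent cells (log2 ratio 0.50), with 23 of 165 (13.9%, 9.05 to 20.2) and 10 of 118 (8.47%, 4.14 to 15.03) cells past 100 CPM. Its ratio was above 0 in the 4 strata, and was larger at night (2.66 in cFOS+ and 1.36 in cFOS- cells) than by day (0.30 and 0.17); the difference between times was not tested. Nms was at 441.7 CPM in active and 342 CPM in silent cells (0.37), but its share of cells was 36.4% and 39.8%. The strata of Nms lay on both sides of 0, from -0.29 in day cFOS+ to 0.77 in night cFOS+ cells. Prokr2 was at 222 CPM in active and 181.25 CPM in silent cells (0.29), with shares of 19.4% and 25.4%. By day its level was higher in active cells, at 308 against 156 CPM, and at night lower, at 147 against 199.95 CPM. Without the cells that carried microglial markers (35.8% of active and 39.8% of silent cells) the Prokr2 ratio was -0.44 and that of Nms -0.05.

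The 14 depolarized cells entered none of these comparisons. Among the 9 by day, 3 were Prok2 cells, 4 Prokr2 cells and 3 Nms cells. Among the 5 at night, none was a Prok2 cell, 1 was a Prokr2 cell and 2 were Nms cells.

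By cFOS label, 143 cFOS+ cells were set against 139 cFOS- cells. Of 11828 genes, 5.74% were at least 2-fold higher in cells labelled cFOS+ and 8.29% at least 2-fold lower, and among the 4 measured members Nms was past 2-fold higher and Prokr2 past 2-fold lower. Nms was at 546.7 CPM in cFOS+ and 255.3 CPM in cFOS- cells (log2 ratio 1.10), with 64 of 143 (44.8%, 36.4 to 53.3) and 43 of 139 (30.9%, 23.4 to 39.3) cells past 100 CPM. The ratio was 1.20 in day active, 1.80 in day silent and 0.88 in night active cells, and 0.02 in night silent cells (242.2 and 239.02 CPM). Without the top cell of each group it was 1.07. It was 1.72 among cells with a cell number below the median, and 0.45, under 2-fold, among those at or above it.

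Prokr2 was at 129.7 CPM in cFOS+ and 282.9 CPM in cFOS- cells (-1.12), with 25 of 143 (17.5%, 11.6 to 24.7) and 37 of 139 (26.6%, 19.5 to 34.8) cells past 100 CPM. It was lower in cells labelled cFOS+ in the 4 strata, with log2 ratios of -1.53 in day active, -0.61 in night active and -0.90 in night silent cells, and no read in day silent cFOS+ cells against 240.3 CPM in day silent cFOS- cells. The share of Prokr2 cells went the other way in night active cells, at 10 of 41 cFOS+ (24.4%) and 7 of 46 cFOS- cells (15.2%). Cells above 1000 CPM numbered 5 of 143 and 17 of 139. Prok2 was at 39.9 CPM in cFOS+ and 45.5 CPM in cFOS- cells (-0.19), with shares of 10.5% and 12.9% and strata on both sides of 0. Microglial markers summed to 100 CPM or more in 31.5% of cFOS+ and 43.9% of cFOS- cells, with 10 of 11 lower in cFOS+ cells. Markers of other hypothalamic neurons (4 of 8 measured, 3 of them higher in cFOS+ cells) summed to 365.1 CPM in cFOS+ and 83.01 CPM in cFOS- cells, over ranges of 0 to 17971 and 0 to 1895 CPM. Pomc, a peptide precursor of arcuate neurons, made up most of the cFOS+ sum, at 308.98 CPM in cFOS+ and 18.6 CPM in cFOS- cells; the part of such cells in the Nms and Prokr2 differences was not tested. Leaving out the cells that carried microglial markers put the Prokr2 ratio at -1.90 and that of Nms at 1.33.

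Vip and Avp, the transcripts that mark the core and the shell of the SCN, divided the cells further. Of the 297 cells, 55 were Vip cells and 102 Avp cells at 100 CPM or more, with 7 in both, so that 48 held Vip only, 95 Avp only and 147 neither. Nms was at 915 CPM in Vip only cells, 566 CPM in Avp only cells, 320.0 CPM in the 7 cells with both and 126.4 CPM in cells with neither. Prok2 had a different order, at 90.3 CPM in Avp only, 69.0 CPM in Vip only, 27.96 CPM in double cells and 12.3 CPM in cells with neither. Prokr2 was at 337 CPM in Avp only, 255.8 CPM in double, 200.1 CPM in Vip only cells and 120 CPM in cells with neither. For all 3 genes the cells with neither peptide were lowest.

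As shares, Nms was present in 34 of 55 Vip cells (61.8%, 47.7 to 74.6) and 78 of the other cells (32.2%, 26.4 to 38.5). It was present in 59 of 102 Avp cells (57.8%, 47.7 to 67.6) and 53 of 195 others (27.2%, 21.1 to 34.0). Prok2 was present in 25 of 102 Avp cells (24.5%, 16.5 to 34.0) and 11 of 195 others (5.64%, 2.85 to 9.87), but in 8 of 55 Vip cells (14.5%, 6.49 to 26.7) and 28 of the other cells (11.6%, 7.83 to 16.3). Prokr2 was present in 32 of 102 Avp cells (31.4%, 22.5 to 41.3) and 35 of 195 others (17.9%, 12.8 to 24.1), and in 17 of 55 Vip cells (30.9%, 19.1 to 44.8) and 50 of the other cells (20.7%, 15.7 to 26.3). Seen from the other side, 69.4% of Prok2 cells, 47.8% of Prokr2 cells and 52.7% of Nms cells held Avp, and 22.2%, 25.4% and 30.4% of them held Vip.

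Prok2 was then read by time within each peptide class. In Avp cells it was present in 21 of 50 by day (42.0%, 28.2 to 56.8) and 4 of 52 at night (7.69%, 2.14 to 18.5), at 155 and 18.4 CPM. In Vip cells it was present in 6 of 24 by day (25.0%, 9.77 to 46.7) and 2 of 31 at night (6.45%, 0.791 to 21.4), at 127 and 15.8 CPM. In cells with neither it was present in 3 of 63 by day and 2 of 84 at night, at 15.7 and 9.79 CPM. The day over night log2 ratio was 3.01 in Avp cells, 2.92 in Vip cells and 0.63 in cells with neither; no test of the difference between these classes was made. Any thinned Prok2 read was still found in 41.9% of night Vip cells and 26.9% of night Avp cells, against 54.2% and 56.0% by day.

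Nms in Vip cells was at 1266 CPM by day against 495 CPM at night, while its share was 58.3% and 64.5%. In Avp cells it was at 702 CPM in day and 395.85 CPM in night cells, with shares of 64% and 51.9%, and in cells with neither at 127.7 and 125.5 CPM. For Prokr2 the pooled level was lower by day in Vip cells and higher by day in Avp cells, while its share was lower by day in both. Among Vip cells it was present in 4 of 24 by day (16.7%, 4.73 to 37.4) and 13 of 31 at night (41.9%, 24.5 to 60.9), at 173 and 235.3 CPM. Among Avp cells it was present in 15 of 50 by day (30.0%) and 17 of 52 at night (32.7%), at 448.9 and 216 CPM. The intervals of the Vip shares overlapped.

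**Figure D3:**
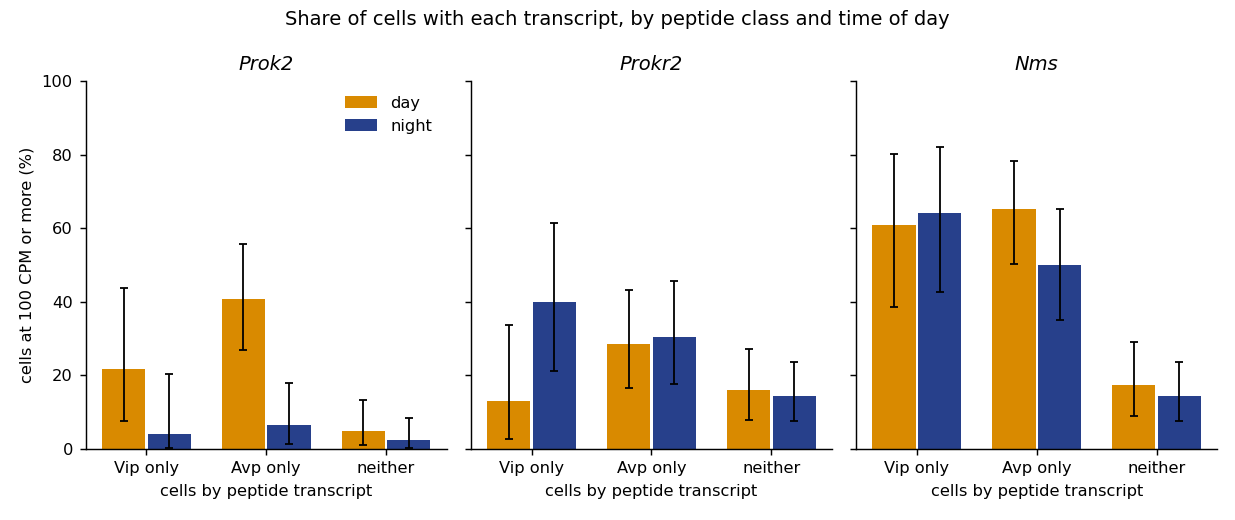
Share of cells at 100 CPM or more (y axis, percent) for Prok2, Prokr2 and Nms in cells with Vip only (23 day, 25 night), Avp only (49 day, 46 night) and neither transcript (63 day, 84 night). Bars are day (orange) and night (blue) with exact 95% intervals; Prok2 stands at 40.8% in day and 6.52% in night Avp only cells, whereas the Nms intervals of day and night overlap in each class.

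The cFOS comparison was also read within peptide classes. In cells with Vip or Avp, Nms was present in 48 of 79 cFOS+ (60.8%) and 37 of 62 cFOS- cells (59.7%), at 821 and 490 CPM. The mix of peptides in this class differed between the labels. Vip cells made up 24.5% of all cFOS+ cells (35 of 143) and 12.2% of all cFOS- cells (17 of 139). Avp cells made up 32.2% (46 of 143) and 35.97% (50 of 139). Within the class, 35 of 79 cFOS+ and 17 of 62 cFOS- cells were Vip cells. Avp cells were 46 of 79 and 50 of 62, with cells that held both counted in each. The part of this mix in the Nms and Prokr2 levels of the class was not tested. In cells with neither, Nms was present in 16 of 64 cFOS+ (25.0%, 15.02 to 37.4) and 6 of 77 cFOS- cells (7.79%, 2.91 to 16.2), at 218 and 53.1 CPM. Prokr2 was lower in cells labelled cFOS+ in either class, at 190.7 against 399.01 CPM in cells with Vip or Avp and 56.6 against 183 CPM in cells with neither.

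The 3 transcripts overlapped within cells. Nms was present in 32 of 36 Prok2 cells (88.9%, 73.9 to 96.9) and in 80 of 261 other cells (30.7%, 25.1 to 36.6). The reverse share was smaller, with Prok2 in 32 of 112 Nms cells (28.6%, 20.4 to 37.9) and 4 of the other cells (2.16%, 0.592 to 5.44). Prokr2 was present in 15 of 36 Prok2 cells (41.7%, 25.5 to 59.2) and 52 of 261 others (19.9%, 15.3 to 25.3). In those 15 cells the transcripts of ligand and receptor were found together, and no protein was measured. Nms was present in 38 of 67 Prokr2 cells (56.7%, 44.0 to 68.8) and 74 of 230 others (32.2%, 26.2 to 38.6). All 3 were present in 13 cells, Prok2 with Nms alone in 19, Prokr2 with Nms alone in 25, Prok2 with Prokr2 alone in 2, and Prok2 without the other two in 2. Of the rest, 55 held Nms only, 27 Prokr2 only and 154 none of the 3. The 4 Prok2 cells without Nms held 462.5, 205.01, 167 and 145 CPM of Prok2 and no Nms read at all. Of the 4 Nmur2 cells, 1 held Nms (183 CPM) and none held Vip, Avp, Prok2 or Prokr2.

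Within the Nms cells, Prok2 was present in 26 of 57 by day (45.6%, 32.4 to 59.3) and 6 of 55 at night (10.9%, 4.11 to 22.2), at 187 and 33.7 CPM (log2 ratio 2.44). In cells without Nms it was present in 3 of 79 by day and 1 of 106 at night, at 14.0 and 1.98 CPM (2.34). The Prok2 level was far lower in cells without Nms at either time. The 2 log2 ratios were close, but the night level without Nms was near the 1 CPM added before taking ratios. The ratio without Nms also rests on few Prok2 cells. Nms in Prok2 cells was at 1116 CPM by day (29 cells) and 1430.0 CPM at night (7 cells).

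**Figure D4:**
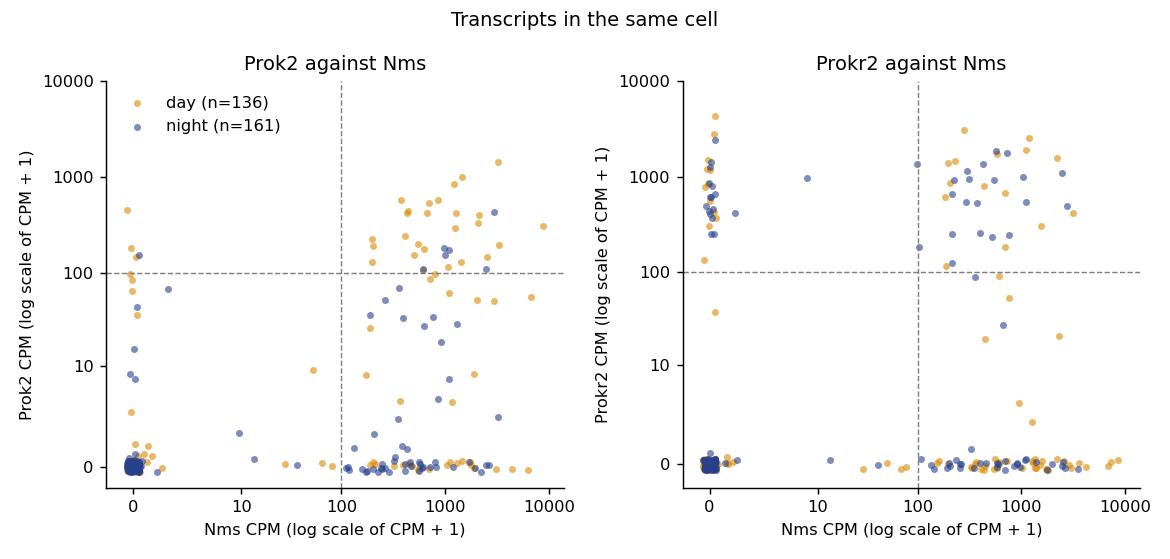
CPM of Prok2 (left) and Prokr2 (right) against Nms in the same cell, on log scales of CPM + 1 with a small random shift, for day (orange) and night (blue) cells, depolarized cells included. Dashed lines mark 100 CPM; 32 of 36 cells above the Prok2 line lie right of the Nms line, against 38 of 67 for Prokr2.

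Other peptides were unevenly shared with these cells. Sst (somatostatin) was present in 0 of 36 Prok2, 0 of 67 Prokr2 and 1 of 112 Nms cells, against 24 of 261, 24 of 230 and 23 of the other cells, in the same order. Cck (cholecystokinin) was present in 12 of 67 Prokr2 cells (17.9%, 9.61 to 29.2) and 5 of 230 others (2.17%, 0.71 to 5.0), and Penk (proenkephalin) in 34 of 112 Nms cells (30.4%) and 32 of the others (17.3%). Cartpt and Pdyn, the precursors of CART and dynorphin peptides, were present in 3 and 2 of 112 Nms cells, against 23 and 17 of the others. Grp, a peptide of the SCN core, was present in 5 of 112 Nms cells (4.46%) and 9 of the others (4.86%).

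Genes most like each member were ranked by Pearson r of log2 (CPM + 1) over all 297 cells among 8641 genes. The ranking is a description, since the cells share slices and differ in depth. The shares given with these genes come from the same cells, so a high overlap follows in part from the ranking. For Prok2 the genes were Creb3l1 (0.53), Nms (0.49), Rasl11b (0.47), Fosl2 (0.40), C1ql3 (0.38) and Rora (0.38). Creb3l1, a membrane-bound transcription factor known in rat to act on the Avp gene, was present in 15 of 36 Prok2 cells (41.7%) and 16 of 261 others (6.13%). Rasl11b, a small GTPase of the Ras family, was present in 23 of 36 (63.9%) and 30 of 261 (11.5%), with an r of 0.56 by day and 0.10 at night. Rora, the nuclear receptor that binds ROR elements, was present in 31 of 36 (86.1%) and 113 of 261 (43.3%).

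For Nms the genes were Prok2 (0.49), C1ql3 (0.48), Pter (0.47), Creb3l1 (0.47), Rora (0.43) and Scg2 (0.43). C1ql3, a secreted protein of synapses, was present in 51 of 112 Nms cells (45.5%) and 15 of the others (8.11%). For Prokr2 they were Vipr2 (0.53), Igfbp5 (0.40), Nsmf (0.39), Cck (0.39), C1ql3 (0.39) and Scg2 (0.39). Vipr2, the receptor through which VIP acts on SCN neurons, was present in 47 of 67 Prokr2 cells (70.1%, 57.7 to 80.7) and 43 of 230 others (18.7%, 13.9 to 24.3), with an r of 0.57 by day and 0.51 at night. Scg2, a granin of secretory granules, was present in every one of the 36, 67 and 112 cells but also in 95.3% of all cells.

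The clock gene list holds 19 genes. Day over night, 6 were at least 2-fold higher and 2 at least 2-fold lower, against 7.00% and 7.44% of all genes tested. The median log2 ratio of the list was 0.37, against -0.03 over all genes tested. Among its genes at 20 CPM or more the largest ratios were those of Ciart (163.2 CPM by day, 38.4 at night), Dbp (3.86-fold higher by day), Nr1d1 (782 and 273.46 CPM) and Hlf (74.4 and 28.5 CPM), all of them rhythmic regulators of the clock or its outputs. Some of these genes also stood at other levels in Prok2 cells than in the rest of the day cells. Nr1d1, whose product is the repressor REV-ERB alpha, was at 1644 CPM in 29 day Prok2 cells and 566.6 CPM in 107 other day cells. Dbp, an activator driven through E-boxes, was at 440.7 and 197.4 CPM, and Per1, a repressor subunit of the clock, at 134 and 70.1 CPM. Arntl, which encodes the E-box activator BMAL1, was at 61.5 CPM in day Prok2 cells and 104 CPM in other day cells. Day Nms cells showed Nr1d1 at 1195 CPM against 504.8 CPM in other day cells, and Dbp at 376.01 against 156.7 CPM. Arntl was higher in day Nms cells, at 109.7 against 83.9 CPM, unlike in day Prok2 cells. Day Prokr2 cells also had more Nr1d1 (1370 against 635.5 CPM), Dbp (324.3 against 228.3 CPM) and Per1 (141.9 against 67.5 CPM) than other day cells. Their Arntl was at 95.4 against 94.6 CPM, and their Per2 was lower, at 176.45 against 239.49 CPM. In day Prok2 and day Nms cells Per2 was higher, at 363.28 against 188.47 CPM and 260.98 against 199.97 CPM. At night Arntl was at 362 CPM in 55 Nms cells and 154 CPM in 106 other night cells, with Dbp at 38 and 75.8 CPM.

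Of the 19 genes of Gq signalling, the route downstream of these receptors, 16 were measured. Day over night, 0 were at least 2-fold higher and 1 was at least 2-fold lower, against 7.00% and 7.44% of all genes. The median was -0.14 against -0.03 over all genes. Active over silent, 3 were at least 2-fold higher and 0 lower, against 7.21% and 6.28% of all genes. Of the 16, 13 were above 0, and the median was 0.46 against 0.01. Among those at 20 CPM or more the largest ratio was that of Itpr2, a calcium-release channel, at 39.9 CPM in active and 10.4 CPM in silent cells. In cFOS+ over cFOS- cells, 1 was at least 2-fold higher (Mapk3, 47.4 and 19.2 CPM) and 1 at least 2-fold lower, against 5.74% and 8.29% of all genes. The median was -0.16 against -0.04. Of the 11 peptide processing genes, none passed 2-fold in either direction by time or firing. By cFOS label 1 was higher, against 5.74% of all genes: Pcsk1, a protease that cleaves peptide precursors. It was at 55.3 CPM in cFOS+ and 27.05 CPM in cFOS- cells. Mrap2 was at 165 CPM in day and 131.6 CPM in night cells, and was present in 16 of 36 Prok2 cells (44.4%) and 27 of 67 Prokr2 cells (40.3%), against 36% and 36.1% of the other cells.

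Of the 17 peptide genes in the SCN peptide list, which contains Prok2, Nms and Nmu, 16 were measured. Day over night, 4 of them, Prok2 included, were at least 2-fold higher and 5 at least 2-fold lower. Over all genes tested these shares were 7.00% and 7.44%. The list median log2 ratio was -0.35 against -0.03 over all genes. The examples with the largest ratios were Npy (38 CPM by day, 0.795 at night), Prok2, Nts (64.3 and 316.6 CPM) and Adcyap1 (14.4 and 52.5 CPM). The Prok2 difference stood beside others of like size in either direction.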

How the data were processed

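Whole-number counts of reads per gene and cell were used as deposited; the submitters' processing notes name GRCm38.p4 (genome build), DESeq2 and STAR, with no role given. A deposited table of normalized signal, which equals the counts divided by 1 factor per cell, served only as an alternative. Another deposited table holds its logarithm and was not used.

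Counts were turned into CPM of each cell's total, with 3187057 to 25535298 reads per cell. Groups were pooled as summed counts over summed totals, and folds are ratios of pooled CPM + 1. A gene was present in a cell at 100 CPM or more; genes entered a comparison at 5 CPM or more in either group, and 2-fold was the call. The labels name no animal or slice, so each group is 1 sample, no test was run and intervals (95%, exact Poisson and Clopper-Pearson) cover counting error only. PCR reads are not independent molecules. The calculation was tested on simulated data. Equal-depth shares used a random draw, without replacement, of 3000000 reads from each cell.

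The 6 genes are given in full. For members present in at least 20 cells, the 6 genes with the highest r are named. Of each list, counts and at most 4 examples with the largest ratios at 20 CPM or more are given. The members and the lists were chosen with earlier results of these data known. Alternatives were pseudocounts, thresholds, leaving out top cells or cells with microglial markers, equal weight per stratum, and cell number. Values were computed with numpy 2.4.6, pandas 2.3.3 and scipy 1.17.1.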

Additional observations from a re-analysis of the deposited data

Results flagged for a closer look

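Prokr2 stood at 1765 CPM in 1 of the 7 day depolarized cFOS- cells, against 701 CPM in the next. This gap is 0.603 of the group's range, above Dixon's limit of 0.568. About 1 in 20 groups of normally distributed values pass that limit by chance. These values are not of that kind, since several of the cells had no Prokr2 read, so the rate does not apply to them. The time ratio of Prokr2 differed in sign between active and silent cells, and its firing ratio between day and night cells. The log2 ratio of day over night was 1.06 in active cells (308 and 147 CPM) and -0.36 in silent cells (156 and 199.95 CPM), with both cFOS classes on the same side. Equally, active over silent it was 0.98 in day cells and -0.45 in night cells. The difference between the ratios was not tested. It includes the 17 day silent cFOS+ cells without a Prokr2 read.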

How the results depend on the processing

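Of 96 alternative log2 ratios for Prok2, Prokr2 and Nms, 85 lay within 1.5-fold of the reported value, and no ratio of 2-fold or more changed sign. The Prok2 ratio of day over night lay between 1.88 and 2.86 under all 11 alternatives. As the mean of the 4 strata Prokr2 gave -1.27 for day over night, 1.94 for active over silent and -2.74 for cFOS+ over cFOS-, all of which include the stratum at 0, and Prok2 gave 1.12 for active over silent. Among higher cell numbers Prokr2 gave 1.39 by time and 0.97 by firing and Nms 0.45 by cFOS label; among lower ones Nms gave 1.72 and Prok2 0.45 by cFOS label. Without cells carrying microglial markers Prokr2 gave -0.44 by firing and -1.90 by cFOS label. Of 87 alternative differences in share, 85 lay within the interval of the reported one. At 1000 CPM the Prok2 share differed by 0.787 percentage points between day and night, since 1 cell passed, and the Nms share by 8.25 points between active and silent cells, against a difference of -3.47 at 100 CPM. Of 60 alternative overlaps, 18 lay outside the interval of the reported share. At 1000 CPM they were 100% for Nms and 0% for Prokr2 in the 2 Prok2 cells, 4.88% for Prok2 in Nms cells, 17.4% for Nms in Prokr2 cells, 34.1%, 0% and 4.55% for Nms, Prok2 and Prokr2 in Vip cells, and 24.3%, 2.70% and 17.6% for the same in Avp cells. At 10 CPM, Prok2 was in 39.8% of Nms and 35% of Vip cells. Among cells of 1 time only, Prok2 was in 45.6% of day and 10.9% of night Nms cells, 42.0% of day and 7.69% of night Avp cells and 6.45% of night Vip cells, and Prokr2 in 16.7% of day Vip cells; for overlaps between the members, the settings by time, without microglial markers and with the close pair kept as 2 cells were chosen after seeing the data. With 20 CPM as the minimum, 3.86% of genes were 2-fold higher and 4.36% lower by day, 3.98% and 3.41% in active cells, and 2.99% and 4.51% in cFOS+ cells. The causes of these shifts were not tested. Prok2 cells at night number 7, so night values of Prok2 rest on few cells. No paired analysis was possible because the labels tie no cells to an animal or slice and the groups share at most 1 cell number, which 2 night cells carry.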
